A study of Homo sapiens with 4 samples.

Results

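The comparison described here is the addition of GSK458 to arsenic trioxide in TOV21G, an established human cell line of ovarian clear cell carcinoma. It set the library of cells that received both drugs against the library of cells that received arsenic trioxide alone, which makes 2 of the 4 libraries of the series, chosen by their labels. As2O3 (arsenic trioxide) was given at 1 µM in both cultures and GSK458 at 0.1 µM in the second, each for 48 h. The other libraries were an untreated control, for which no time is given, and cells that received GSK458 alone at 0.1 µM for 48 h. Each group was 1 sample of this 1 line. With 1 library a side there is no replicate spread, so no difference was tested and every value describes these libraries only. The sources used here do not say whether the control received the drug solvent.

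GSK458, also known as omipalisib, blocks the lipid kinase PI3K and the kinase mTOR, which together pass growth factor and nutrient signals on to protein synthesis, metabolism and the cell cycle. Among the outputs of mTOR complex 1 is the translation of ATF4, a transcription factor that switches on amino acid synthesis, uptake and tRNA charging. ATF4 is also the effector of the integrated stress response, through which arsenic and other stresses act on translation, and downstream of it lies DDIT3, a transcription factor linked to cell death. PI3K further acts through the kinase AKT, which keeps FOXO transcription factors out of the nucleus, while sterol synthesis depends on SREBP factors that mTOR favours. Arsenic is also known for the antioxidant response driven by NRF2.

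Poly(A) RNA was sequenced and the authors gave the level of each gene as FPKM (fragments per kilobase of transcript, scaled for library size). Of 26255 gene symbols, 12260 averaged 1 FPKM or more across the libraries, and without 60 small RNA symbols 12200 genes were compared. At that limit CSF3R was just inside, with 0.861 FPKM with As2O3 and 0.541 FPKM with both drugs, and LOC101927043 just outside, with 1.02 and 0.8599 FPKM. The absolute depth is unknown. Low FPKM values of the libraries were compared in 1408 genes under 0.5 FPKM with As2O3 and with a ratio between 0.5 and 2. Their commonest ratio, shared by 337 genes, was 1.12. If such values stand for equal counts, the combination library was scaled by 89.1% of the factor of the As2O3 library. That need not be the ratio of their depths. Differences are given as log2 of the ratio of FPKM + 1, a scale that understates the difference of low genes, with the library that received GSK458 minus the one that did not. Of the clear cell carcinoma markers, ANXA4 and PAX8 were abundant (156 against 287 FPKM and 149 against 88.7 FPKM, As2O3 against both drugs), while NAPSA, EPCAM and KRT7 were low in both libraries, at 0.815, 0.63998 and 2.79 FPKM with As2O3. The summed level of 12 immune markers was 1.47 to 4.41 FPKM in the 4 libraries, that of 11 fibroblast markers 2.59 to 6.13 FPKM and that of 9 endothelial markers 7.71 to 8.74 FPKM. Under 1 FPKM in every library were 11, 9 and 7 of them, and most of the endothelial sum was ENG (7.79 against 6.06 FPKM). PTPRC and LUM were listed at 0 with As2O3.

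When GSK458 was added to arsenic trioxide, genes of cell division and of the ATF4 amino acid programme were among the lowest, and the secreted glutathione peroxidase GPX3 was highest. At least 2-fold lower were 507 genes (4.16% of those compared) and at least 2-fold higher were 256 genes (2.1%). The pseudocount moved these counts most among the pseudocounts and scalings tried, to 676 lower and 559 higher with 0.1 FPKM and 260 lower and 54 higher with 5 FPKM. With a scaling on the upper quartile, which moved the median of all genes by 0.11, the split was 402 lower and 377 higher. With libraries rescaled to a sum of 1000000 it was 569 and 445. The FPKM sums were 577409 with As2O3 and 566797 with both drugs, so this rescaling raised the values of both libraries. The pseudocount and filter stayed at 1, so it also acted as a smaller pseudocount and a looser filter. Lower at all were 52.3% of genes and higher at all 47.7%. The median over all genes was −0.022 and the SD over genes 0.54. At least 4-fold lower were 86 genes and at least 4-fold higher 13. The lower genes had a median of 17.9 FPKM with As2O3 alone and 5.196 FPKM with both drugs. The higher genes had medians of 2.83 and 8.82 FPKM in the same order. Both sets were chosen by the difference between these libraries, so their levels there are partly set by the choice. Of the higher genes 14.5% carried symbols of long non-coding or uncharacterised loci, against 3.96% of all genes compared.

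The same drug step without arsenic, GSK458 against control, rests on the other 2 libraries. There 459 genes were at least 2-fold lower (3.76%) and 269 higher (2.2%), while 50.6% of genes were lower at all and 49.4% higher at all. Of the 507 genes lower on top of arsenic, 301 were also at least 2-fold lower in that pair, which is 59.4% of the first set and 65.6% of the second. Another 167 were lower there by less than 2-fold and 39 were higher. Of the 256 genes higher on top of arsenic, 87 were at least 2-fold higher without it as well, 33.98% and 32.3% of the sets. Across genes, which are not independent replicates, Pearson's r of the differences was 0.69 and Spearman's rho 0.61.

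**Figure D1:**
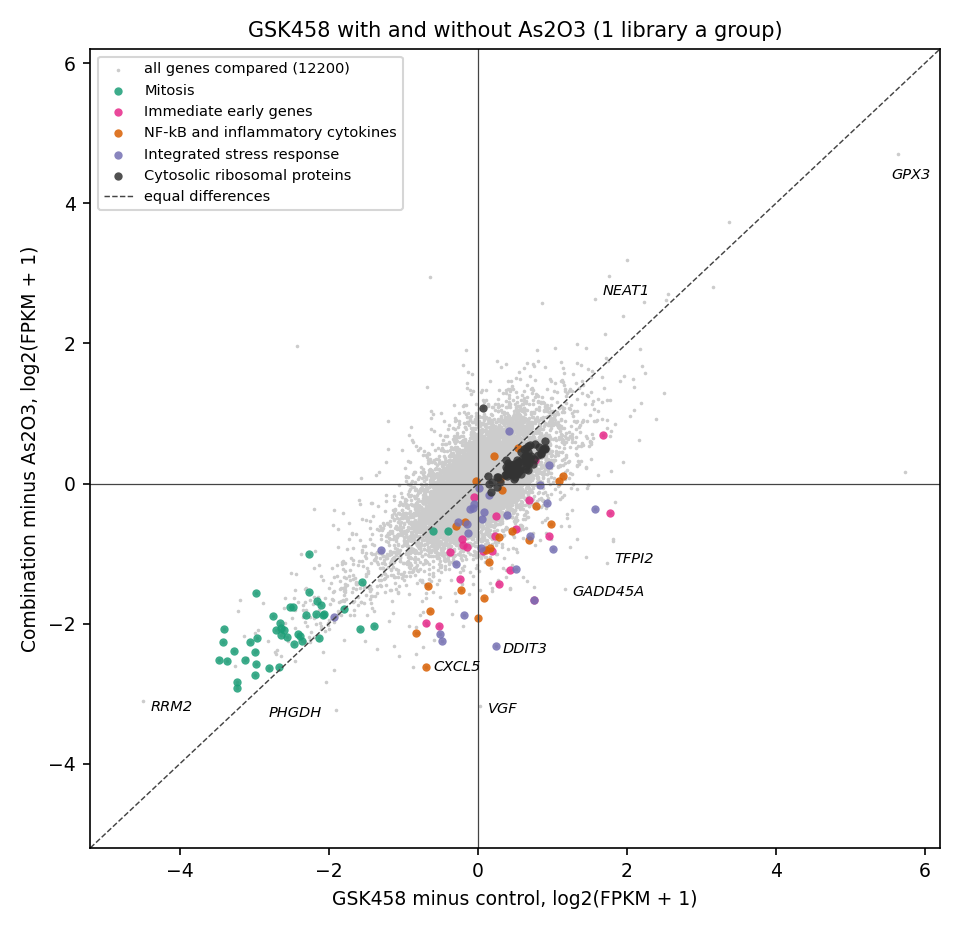
Difference of each gene on the log2(FPKM + 1) scale, GSK458 minus control on the x axis and the combination minus As2O3 on the y axis, with 1 point a gene and 5 gene lists coloured. Mitotic genes lie low on both axes, whereas DDIT3 (−2.32 on y, 0.24 on x) and VGF (−3.18 and 0.034) lie low on the y axis only.

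The enzymes that make serine and asparagine stood among the lowest genes of the whole comparison. PHGDH, which opens serine synthesis, stood at 24.7 FPKM without drugs, 5.87 with GSK458, 69.4 with As2O3 and 6.47 with both drugs. ASNS, the asparagine synthetase, stood at 16.1 FPKM without drugs, 8.41 with GSK458, 67.8 with As2O3 and 10.2 with both drugs. In both genes the As2O3 library was the highest of the 4 and the libraries with GSK458 the lowest, below the control, with log2 differences between the combination and As2O3 of −3.24 and −2.62. PSAT1, the next enzyme after PHGDH, had 54.6 FPKM without drugs, 23.3 with GSK458, 80.9 with As2O3 and 20.01 with both drugs. MTHFD2, which carries serine-derived carbon through folate in mitochondria, was likewise highest with As2O3 and lower in the GSK458 libraries than in the control, with 34.4 FPKM without drugs, 20.3 with GSK458, 119.8 with As2O3 and 23.1 with both drugs. ALDH1L2, its mitochondrial neighbour in folate metabolism, was lower as well (9.55 against 1.599 FPKM, As2O3 against both drugs).

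Of the 27 genes listed for serine, asparagine, proline and folate-linked enzymes, 25 passed the filter, 21 were lower and 10 at least 2-fold lower, with a median of −0.68 against −0.022 for all genes. Further members at least 2-fold lower were MTHFD1L, GPT2, PYCR1, GOT1 and CTH, at −1.26, −1.09, −1.07, −1.06 and −1.01. GPT2, PYCR1, GOT1 and CTH were picked after their values were seen. One member went the other way: ALDH1L1, the cytosolic counterpart of ALDH1L2, stood at 0.885 FPKM without drugs, 1.91 with GSK458, 2.94 with As2O3 and 11.3 with both drugs, so the combination library was the highest. In the GSK458 pair without arsenic the list had a median of −0.42 and 5 genes at least 2-fold lower.

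The transcription factors and effectors of the integrated stress response were lower as well, and most of them were higher with As2O3 alone than in the control. DDIT3 stood at 9.26 FPKM without drugs, 11.1 with GSK458, 72.7 with As2O3 and 13.7 with both drugs, and only the As2O3 library stood apart. The difference for DDIT3 was 0.24 between GSK458 and control, and −2.32 when it was added to arsenic. CHAC1, which degrades glutathione, had 4.18 FPKM without drugs, 2.73 with GSK458, 23.9 with As2O3 and 4.25 with both drugs. TRIB3, a pseudokinase that ATF4 induces, had 16.6 FPKM without drugs, 14.5 with GSK458, 72.8 with As2O3 and 19.2 with both drugs, and ATF3, another stress transcription factor, 1.35 FPKM without drugs, 2.97 with GSK458, 17.1 with As2O3 and 4.698 with both drugs. All of these 4 genes were highest with As2O3 alone and lay near the control or between the control and As2O3 with both drugs. DDIT4, an inhibitor of mTOR complex 1, had another order: it was as high in the control as with As2O3 and low in both libraries with GSK458 (1105 FPKM without drugs, 289 with GSK458, 1152 with As2O3 and 306 with both drugs). ATF4 itself, singled out after its value was seen, differed less, with 534 FPKM with As2O3 and 443 FPKM with both (−0.27).

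Among 28 of 30 listed stress response genes that passed the filter, 26 were lower and 8 at least 2-fold lower, with a median of −0.56. NUPR1 was among the 8, at −1.22, as were PPP1R15B (−1.14) and INHBE (−2.14), both picked after their values were seen. INHBE stayed under 5 FPKM in every library. Without arsenic the list had a median of 0.050 with 12 genes lower and 16 higher. The As2O3 library enters both the comparison with the control and the one with the combination, so a level that is high in this library alone shows as higher in the one and lower in the other.

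**Figure D2:**
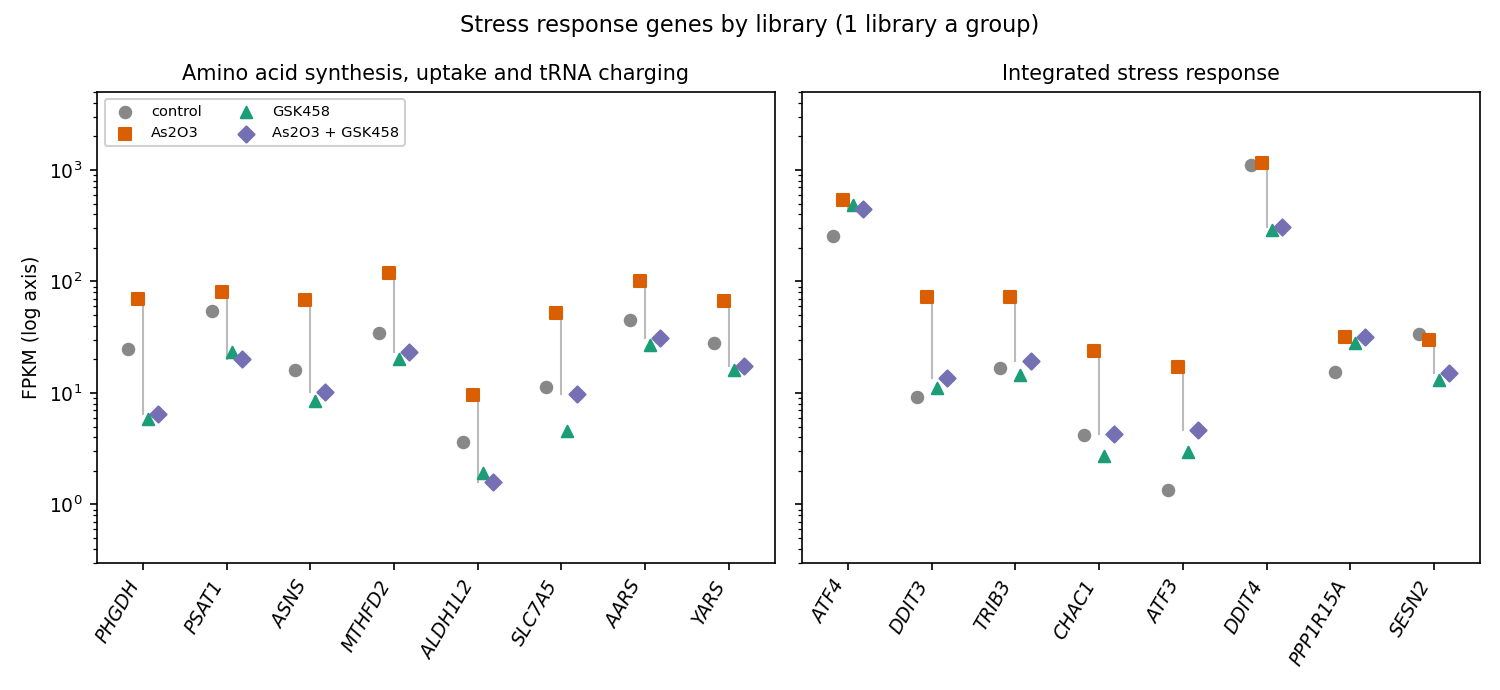
Level of 8 genes of amino acid synthesis, uptake and tRNA charging and 8 of the integrated stress response, as FPKM on a log axis with 1 symbol for each of the 4 libraries. Grey lines join As2O3 to the combination; As2O3 is the highest library for PHGDH, ASNS and DDIT3, while PPP1R15A is level between them (31.9 against 31.5 FPKM).

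Amino acid transporters and tRNA synthetases, some of which ATF4 also controls, differed in how many members moved. SLC7A5, the light chain of a leucine transporter, stood at 11.2 FPKM without drugs, 4.59 with GSK458, 52.5 with As2O3 and 9.69 with both drugs, and SLC1A5, a glutamine transporter, at 48.4 FPKM without drugs, 34.2 with GSK458, 84.7 with As2O3 and 34.7 with both drugs. They were the only members of the transporter list at least 2-fold lower, since 11 of 19 were lower and 8 higher (median −0.14). The cystine transporter SLC7A11, also an NRF2 target and picked after its value was seen, was higher in the combination at 11.2 against 17.6 FPKM. The synthetases, which charge tRNAs with amino acids, were lower in 18 of 20 genes and at least 2-fold in 6, with a median of −0.56. YARS stood at 66.3 against 17.4 FPKM, AARS at 101 against 31.04 FPKM, WARS at 179.9 against 66.9 FPKM and MARS at 98.8 against 37.3 FPKM, all As2O3 against both drugs. GARS and CARS completed the 6, with log2 differences of −1.08 and −1.06. Without arsenic only 1 synthetase, WARS, was at least 2-fold lower, at −1.11.

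Promoters of the genes of these lists were read for the letters of the element that ATF4 binds together with C/EBP factors, since many of the genes were lower. The search took TTNCATCA or its reverse complement TGATGNAA in the 300 bases from 250 before to 50 after each RefSeq start (GRCh38.p14), and a gene held the element where any of its starts did. RefSeq promoters matched 9896 of the 12200 genes compared by symbol or synonym. The letters occurred in 2.48% of all these genes, in 20 of 408 genes at least 2-fold lower (4.902%) and in 4 of 187 at least 2-fold higher (2.14%). They were found in 6 of 13 synthetases, 7 of 26 stress response genes, 5 of 17 transporters and 3 of 19 genes of the serine and asparagine list. Among members at least 2-fold lower the counts were 3 of 4, 3 of 6, 1 of 2 and 3 of 7 in the same order. SLC1A5 was thus the only transporter with the letters at least 2-fold lower. SLC38A1, another with them and picked after its value was seen, was higher (40.5 against 58.1 FPKM). The 4 stretches shown come from genes at least 2-fold lower, 1 of each list, 5′ to 3′ on the gene's strand with the matched letters in capitals.
ASNS promoter (chr7:97872429-97872516, minus strand): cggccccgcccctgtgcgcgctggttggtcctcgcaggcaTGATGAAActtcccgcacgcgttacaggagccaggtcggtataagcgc
CHAC1 promoter (chr15:40953222-40953309, plus strand): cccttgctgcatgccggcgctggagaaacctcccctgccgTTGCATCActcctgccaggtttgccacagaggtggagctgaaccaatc
AARS promoter (chr16:70289646-70289733, minus strand): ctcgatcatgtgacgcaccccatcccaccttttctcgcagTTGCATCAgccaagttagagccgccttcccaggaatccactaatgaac
SLC1A5 promoter (chr19:46784864-46784951, minus strand): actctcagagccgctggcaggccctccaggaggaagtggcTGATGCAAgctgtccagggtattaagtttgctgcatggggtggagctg
In CHAC1 and AARS the match reads TTGCATCA, in SLC1A5 its reverse with a C before the final AA, and in ASNS the reverse with an A there. PHGDH and DDIT3 held no match in this window.

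Cell division genes were numerous among the other lowest genes. Every one of the 44 mitotic genes was lower in the combination than with As2O3, 41 at least 2-fold, between −2.91 and −0.67 with a median of −2.09. UBE2C, which tags mitotic cyclins for destruction, stood at 90.2 FPKM without drugs, 8.72 with GSK458, 144 with As2O3 and 18.3 with both drugs, and the chromosome passenger kinase AURKB at 41.9 FPKM without drugs, 3.56 with GSK458, 60.3 with As2O3 and 7.57 with both drugs. The order was the same in both: As2O3 above the control, and both GSK458 libraries far below, GSK458 alone lowest. KIF2C, a motor that takes microtubules apart at kinetochores, had 41.7 FPKM with As2O3 and 5.39 FPKM with both, BUB1, a kinase of the spindle checkpoint, 23.5 FPKM with As2O3 and 2.95 FPKM with both, and cyclin A2 (CCNA2) 35.9 FPKM with As2O3 and 5.196 FPKM with both. CDCA8, a partner of AURKB, stood at 25.1 against 3.26 FPKM, the mitotic kinase PBK at 28.7 against 4.12 FPKM and FAM64A, which is in no list, at 30.6 against 4.18 FPKM. In RNA from whole cultures, fewer dividing cells and less of these messages per cell cannot be told apart. Without arsenic the median of the list was −2.58, with 42 of 44 genes at least 2-fold lower.

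DNA replication and repair genes were lower too, with medians nearer 0 than that of the mitotic genes. All 40 S phase genes were lower, 31 at least 2-fold, with a median of −1.37. RRM2, a subunit of ribonucleotide reductase, stood at 52.1 FPKM without drugs, 1.36 with GSK458, 28.2 with As2O3 and 2.41 with both drugs, so it was already lower with As2O3 than in the control and lower again with GSK458. CDC6, which loads the replicative helicase, stood at 12.5 FPKM without drugs, 0.928 with GSK458, 14.8 with As2O3 and 2.32 with both drugs, the histone chaperone ASF1B at 34.7 against 6.903 FPKM, MCM10 at 8.31 against 1.18 FPKM, thymidine kinase TK1 at 48.7 against 10.6 FPKM and DSCC1 at 6.68 against 0.932 FPKM. Of 27 genes of homologous recombination and repair all were lower and 12 at least 2-fold (median −0.97), led by UBE2T (56.97 against 8.19 FPKM), EXO1 (8.06 against 0.8898 FPKM), RAD51AP1 (15.8 against 2.53 FPKM) and FANCI (14.98 against 3.05 FPKM). RAD54L, a motor protein of recombination, stood at 9.37 against 1.75 FPKM.

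Regulators of the G1 phase included members with opposite roles. Of 26 genes 23 were lower, 9 at least 2-fold (median −0.69). The activators E2F1 (7.92 against 1.37 FPKM), E2F2 (5.28 against 0.806 FPKM), CDK2 (31.9 against 13.9 FPKM) and cyclin E1 (CCNE1, 13.5 against 5.71 FPKM) were lower, and so were the inhibitors CDKN2C (7.72 against 2.0999 FPKM) and CDKN1A. CDKN1A, which encodes p21, stood at 79.7 FPKM without drugs, 90.4 with GSK458, 244 with As2O3 and 105 with both drugs, so the level with both drugs lay near the GSK458 level and above the control. CCND1 and CDKN1B, picked after their values were seen, differed by 0.056 and −0.078.

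**Figure D3:**
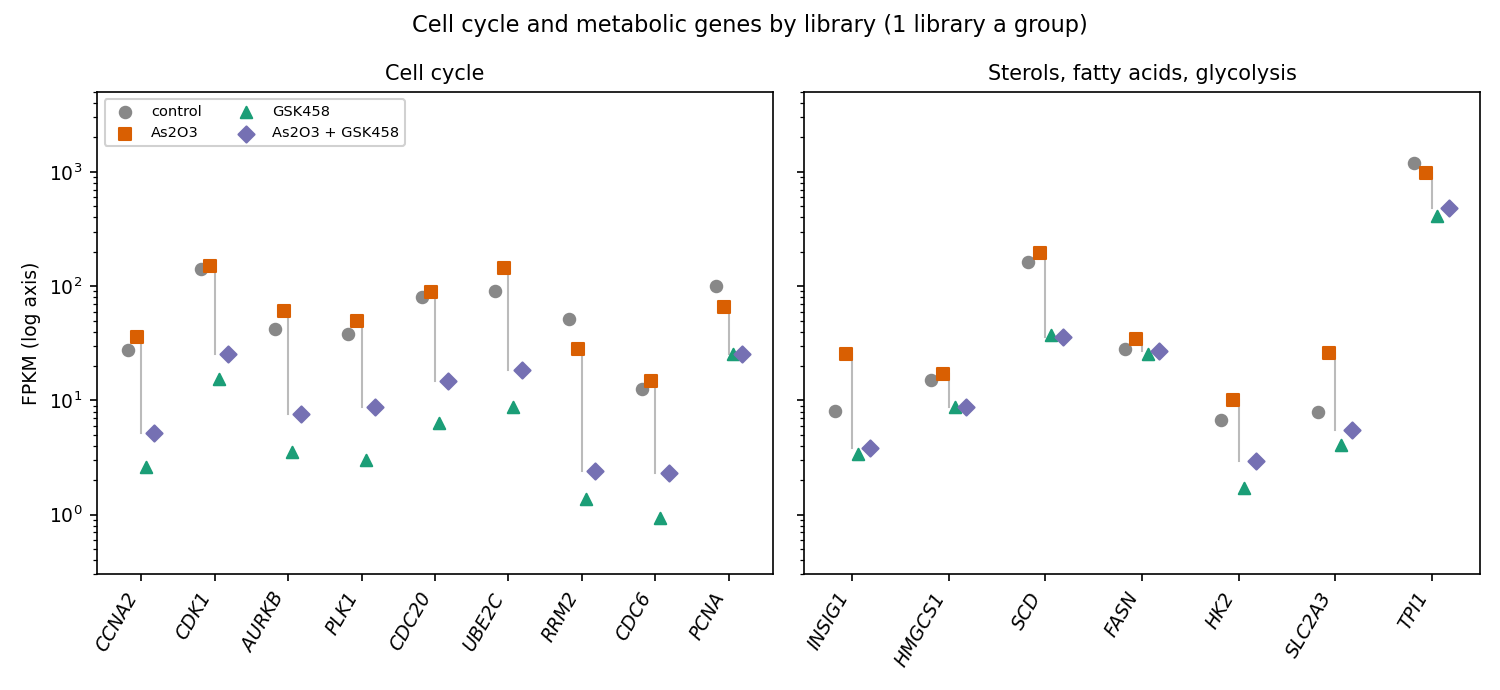
FPKM on a log axis in each of the 4 libraries for 9 cell cycle genes and 7 genes of sterol, fatty acid and sugar metabolism. The combination lies above GSK458 alone for CCNA2, AURKB and UBE2C, and close to it for INSIG1 and SCD.

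The promoters of the mitotic genes were read for the cell cycle homology region, CHR (TTTGAA, reverse TTCAAA), an element through which the DREAM and MYB-MuvB complexes act, and those of S phase genes for the E2F letters TTTNNCGC (reverse GCGNNAAA). CHR letters were found in 25 of 36 mitotic genes with a promoter (69.4%), in 13.02% of all genes, in 28.4% of the genes at least 2-fold lower and in 11.8% of those at least 2-fold higher. E2F letters were found in 22 of 35 S phase genes (62.9%), in 13.2% of all genes, in 17.2% of the lower and in 9.09% of the higher genes. Among the S phase genes at least 2-fold lower the share was smaller than in the whole list, at 14 of 26 (53.8%). For CHR letters in mitotic genes it was 23 of 34 (67.6%). The stretches show CHR letters of 4 mitotic genes and E2F letters of 2 replication genes, in capitals, and all come from genes at least 2-fold lower. PLK1, MKI67, CCNB2 and PCNA were chosen for print after their values were seen.
CDCA8 promoter (chr1:37692453-37692538, plus strand): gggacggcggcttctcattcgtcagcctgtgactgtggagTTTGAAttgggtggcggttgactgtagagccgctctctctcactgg
PLK1 promoter (chr16:23678820-23678905, plus strand): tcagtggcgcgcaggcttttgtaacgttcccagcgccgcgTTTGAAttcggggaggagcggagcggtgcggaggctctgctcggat
CCNB2 promoter (chr15:59105077-59105162, plus strand): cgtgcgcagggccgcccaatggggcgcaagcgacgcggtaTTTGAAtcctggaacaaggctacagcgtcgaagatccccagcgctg
MKI67 promoter (chr10:128126425-128126510, minus strand): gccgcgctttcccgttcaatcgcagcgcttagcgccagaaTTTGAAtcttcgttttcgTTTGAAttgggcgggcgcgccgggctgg
CDC6 promoter (chr17:40287846-40287928, plus strand): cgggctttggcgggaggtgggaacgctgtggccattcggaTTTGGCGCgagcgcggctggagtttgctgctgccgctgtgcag
PCNA promoter (chr20:5126634-5126721, minus strand): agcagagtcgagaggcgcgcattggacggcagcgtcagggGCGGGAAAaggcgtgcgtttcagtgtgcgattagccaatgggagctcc
PLK1, a kinase that drives mitotic entry, stood at 49.8 against 8.69 FPKM, CCNB2, a mitotic cyclin, at 58.6 against 15.2 FPKM, and MKI67, the proliferation marker Ki-67, at 33.6 against 7.21 FPKM, As2O3 against both drugs. PCNA, the sliding clamp of DNA polymerase, stood at 65.3 against 25.3 FPKM. The MKI67 stretch holds the CHR letters 2 times.

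Genes of cholesterol metabolism were lower in the combination. INSIG1, which holds SREBP in the endoplasmic reticulum and is itself an SREBP target, stood at 8.09 FPKM without drugs, 3.38 with GSK458, 25.6 with As2O3 and 3.81 with both drugs. It was highest with As2O3 and nearly equal in both libraries with GSK458. Of the 25 genes of the list 24 were lower and 9 at least 2-fold (median −0.80, and −0.57 without arsenic). The synthesis enzymes at least 2-fold lower were ACAT2 (35.98 against 11.3 FPKM), DHCR7 (33.6 against 12.4 FPKM) and IDI1 (32.7 against 12.99 FPKM), beside MSMO1 and EBP, which were picked after their values were seen (−1.15 and −1.12). The letters of a sterol regulatory element, TCACNCCAC or the reverse complement, were found in the promoters of 1 of 18 list members, none of them among the 6 lower by at least 2-fold that had a promoter, and in 1.37% of all genes. In fatty acid synthesis only the desaturase SCD was at least 2-fold lower, at 163 FPKM without drugs, 37.7 with GSK458, 195 with As2O3 and 36.2 with both drugs, while 15 of 22 genes were lower (median −0.29).

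Transcripts of most energy metabolism genes and of most ER chaperones were lower, the majority by less than 2-fold. In the glycolysis and hypoxia list 29 of 30 genes were lower and 5 at least 2-fold (median −0.65). SLC2A3, a glucose transporter, stood at 7.95 FPKM without drugs, 4.04 with GSK458, 25.8 with As2O3 and 5.49 with both drugs, hexokinase HK2 at 10.1 against 2.94 FPKM, the pyruvate dehydrogenase kinase PDK1 at 11.1 against 4.51 FPKM, ALDOC at 31.9 against 14.2 FPKM and TPI1 at 984 against 479 FPKM. All 40 nuclear genes of oxidative phosphorylation were lower, none of them 2-fold, between −0.99 and −0.006, with ATP5G1 and CYC1 lowest at −0.99 and −0.95. Among ER chaperones 18 of 23 were lower (median −0.45), and PDIA4 and HSPA5 stood at 171 against 85.1 FPKM and 313 against 158 FPKM. Each of these 3 lists had a median of similar size in the GSK458 pair without arsenic, at −0.62, −0.46 and −0.59.

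Several chemokines were lower when GSK458 was added to arsenic. Of the NF-kB and cytokine list 18 of 24 genes were lower and 8 at least 2-fold (median −0.72), whereas GSK458 against control gave 8 lower and 16 higher (median 0.16); with 1 library a group this difference was not tested. The neutrophil chemokine CXCL5 stood at 37.99 FPKM without drugs, 23.03 with GSK458, 91.6 with As2O3 and 14.1 with both drugs. CXCL1 and CXCL2, its close relatives, stood at 37.5 FPKM without drugs, 20.6 with GSK458, 46.9 with As2O3 and 9.96 with both drugs and at 20.97 FPKM without drugs, 13.1 with GSK458, 28.2 with As2O3 and 7.28 with both drugs. For all 3 chemokines the combination library was the lowest of the 4. CCL20 (6.77 against 1.05 FPKM), CXCL8 (6.505 against 1.62 FPKM) and TNF (37.04 against 11.3 FPKM) were lower as well. SOD2, the mitochondrial superoxide dismutase, was not: it stood at 575 FPKM with As2O3 and 617 FPKM with both and was singled out after its value was seen.

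The promoters of the list were read on both strands for the NF-kB letters, GGG and TTTCC with 2 bases of any kind between them. They occurred in 13 of 19 list members with a promoter, in 2.84% of all genes, in 5.88% of the genes at least 2-fold lower and in 4.28% of those at least 2-fold higher. The promoters of CXCL1 and CXCL2, shown with CXCL5, are near copies of each other around the match, and reads of these paralogs may be shared between them.
CXCL5 promoter (chr4:73998719-73998808, minus strand): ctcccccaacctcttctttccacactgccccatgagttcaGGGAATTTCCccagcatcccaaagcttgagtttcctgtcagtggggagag
CXCL1 promoter (chr4:73869274-73869363, plus strand): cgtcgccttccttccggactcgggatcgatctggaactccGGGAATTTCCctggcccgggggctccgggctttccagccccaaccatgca
CXCL2 promoter (chr4:74099224-74099313, minus strand): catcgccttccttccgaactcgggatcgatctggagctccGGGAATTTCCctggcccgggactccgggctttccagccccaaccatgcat
All 3 stretches carry the match GGGAATTTCC.

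Immediate early genes, which growth factors and stress switch on within minutes, were lower in 19 of 21 cases and at least 2-fold in 6 (median −0.88). FOS stood at 2.13 FPKM without drugs, 1.18 with GSK458, 14.5 with As2O3 and 2.78 with both drugs and EGR1 at 3.38 FPKM without drugs, 1.71 with GSK458, 12.5 with As2O3 and 2.398 with both drugs. NR4A1, an orphan nuclear receptor, stood at 8.38 FPKM without drugs, 10.5 with GSK458, 60.7 with As2O3 and 21.8 with both drugs, and CYR61, a secreted matrix protein, at 45.01 FPKM without drugs, 60.9 with GSK458, 54.6 with As2O3 and 22.8 with both drugs. For FOS, EGR1 and NR4A1 the As2O3 library was the highest, and for CYR61 the combination was the lowest. Without arsenic 13 of 21 were higher with GSK458 (median 0.23). AP-1 letters (TGANTCA on either strand) were in the promoter of 1 of 17 immediate early genes and of 6.77% of all genes. In the list of genes that report ERK activity 18 of 27 were lower (median −0.33, and 0.43 without arsenic). PHLDA2 (25.5 against 6.2999 FPKM), the EGF-family ligand EREG (37.5 against 12.8 FPKM), FOSL1 (21.7 against 7.85 FPKM), PHLDA1 (53.7 against 20.6 FPKM) and the receptor EPHA2 (53.7 against 22.6 FPKM) were at least 2-fold lower, as was the ERK phosphatase DUSP5 (174 against 83.6 FPKM), and EPHA4, a related receptor, was higher (2.79 against 9.09 FPKM). VGF, a secreted neuropeptide precursor, was the second lowest gene of all: it stood at 0.581 FPKM without drugs, 0.619 with GSK458, 23.3 with As2O3 and 1.67 with both drugs, so only the As2O3 library held more than 2 FPKM.

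**Figure D4:**
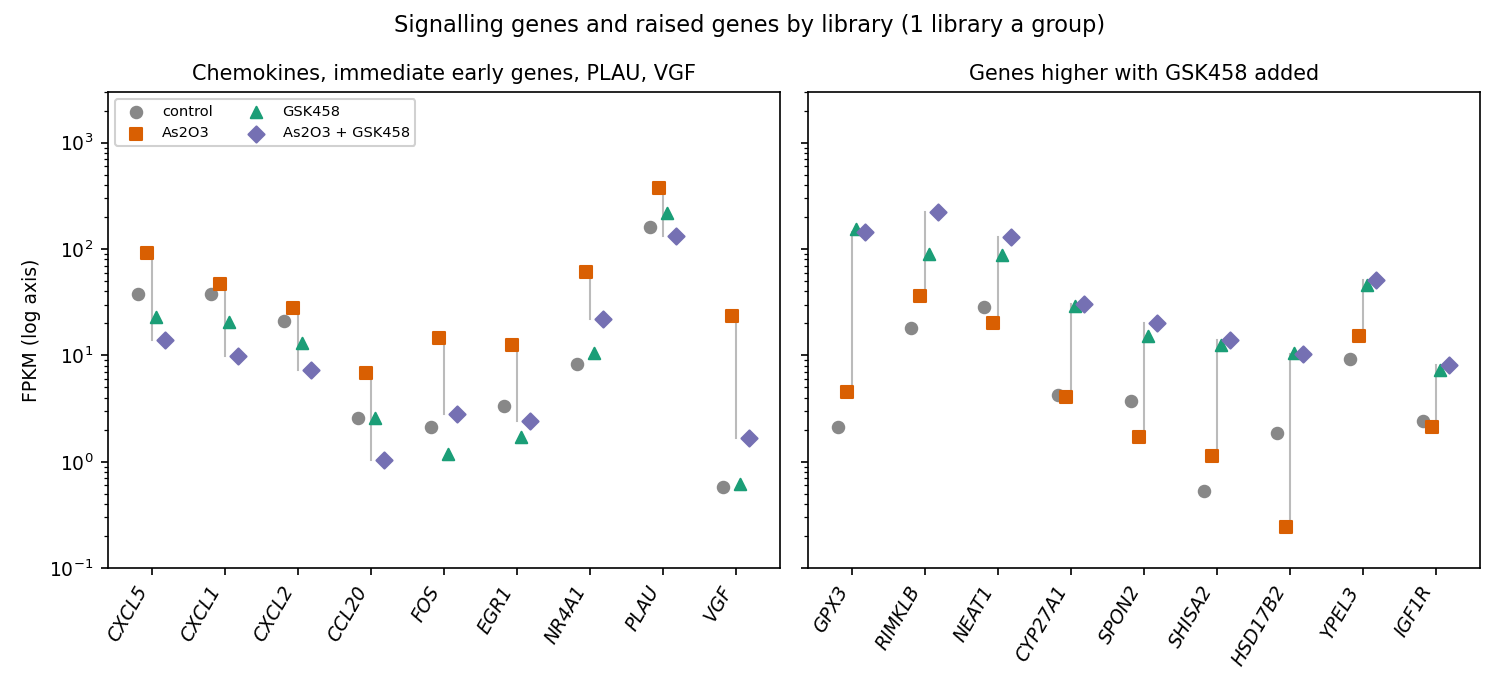
FPKM on a log axis in each of the 4 libraries for 9 signalling genes and 9 genes that were higher when GSK458 was added. As2O3 is highest for FOS, EGR1, NR4A1 and VGF, and both GSK458 libraries lie above the others for GPX3, RIMKLB and NEAT1.

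Several genes of growth arrest and cell death were lower. In the p53 target list 22 of 28 genes were lower and 7 at least 2-fold (median −0.39). GADD45A, a stress sensor that is also a FOXO target, stood at 4.78 FPKM without drugs, 12.01 with GSK458, 31.99 with As2O3 and 10.6 with both drugs, GADD45B at 13.8 against 5.28 FPKM, the kinase PLK2 at 163 against 67.9 FPKM, DDB2 at 22.1 against 8.798 FPKM and AEN at 19.7 against 8.65 FPKM. TP53I3, an oxidoreductase of the same list, was higher at 14.5 against 38.3 FPKM. Of the BCL2 family and death receptors 17 of 28 were lower, with a median of −0.13. PMAIP1 (NOXA), a BH3-only protein that promotes cell death, stood at 1.95 FPKM without drugs, 0.953 with GSK458, 14.6 with As2O3 and 2.32 with both drugs, and BBC3 (PUMA), another, at 39.8 against 18.4 FPKM. BIRC3 was lower too (7.34 against 2.83 FPKM). BMF, also a BH3-only protein, was higher, at 7.24 FPKM without drugs, 22.8 with GSK458, 9.69 with As2O3 and 22.5 with both drugs.

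Targets of FOXO factors, which PI3K inhibition releases, were higher in 19 of 28 cases, 3 at least 2-fold (median 0.31). YPEL3 stood at 9.26 FPKM without drugs, 46.2 with GSK458, 15.2 with As2O3 and 50.8 with both drugs, the insulin-like growth factor receptor IGF1R at 2.41 FPKM without drugs, 7.28 with GSK458, 2.11 with As2O3 and 8.21 with both drugs, and the transcriptional cofactor CITED2 at 95.1 FPKM without drugs, 168 with GSK458, 83.1 with As2O3 and 187 with both drugs. The libraries with GSK458 were the highest for all 3. GADD45A and the glucocorticoid-induced TSC22D3 (37.1 against 16.4 FPKM) were at least 2-fold lower. FOXO letters (GTAAACA or the reverse complement) were in the promoters of 6 of 24 targets and of 3.51% of all genes. They were in 1 of the 3 targets at least 2-fold higher, YPEL3, and also in TSC22D3, the 1 lower target with a promoter. Among all genes they were in 4.81% of those at least 2-fold higher and 2.45% of those at least 2-fold lower. Among receptor tyrosine kinases 17 of 19 were higher (median 0.28), with FGFR4 (17.7 against 8.31 FPKM) and EPHA2 as the exceptions. The PI3K, AKT and mTOR components themselves had a median of −0.077, which turned to 0.031 with upper-quartile scaling. Besides DDIT4 only EIF4EBP1, the repressor of cap-dependent translation that mTOR phosphorylates, was at least 2-fold lower in that list, at 60.1 FPKM without drugs, 36.5 with GSK458, 137 with As2O3 and 45.9 with both drugs. PIK3CA and MTOR, which encode the drug's targets and were picked after their values were seen, differed by 0.016 and −0.17.

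Most protein synthesis genes differed by less than 2-fold. Cytosolic ribosomal proteins were higher in 71 of 74 genes, between −0.12 and 1.08, with a median of 0.27 against 0.54 without arsenic. RPL21 was the one above 2-fold, at 172 FPKM without drugs, 181 with GSK458, 204 with As2O3 and 431 with both drugs, and processed pseudogenes make single values of this family uncertain. Translation factors were split, 21 higher and 17 lower (median 0.068), with EIF4EBP1 as the member at least 2-fold apart, and ribosome biogenesis genes were lower in 29 of 38 cases (median −0.22), of which LYAR alone was at least 2-fold lower (10.8 against 4.29 FPKM).

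NRF2 targets differed by less than 2-fold between the libraries with arsenic. HMOX1, haem oxygenase, stood at 30.3 FPKM without drugs, 47.2 with GSK458, 1375 with As2O3 and 1949 with both drugs, TXNRD1, thioredoxin reductase, at 60.6 FPKM without drugs, 154 with GSK458, 470.5 with As2O3 and 563 with both drugs, and NQO1, a quinone reductase, at 727 FPKM without drugs, 801 with GSK458, 1807 with As2O3 and 2089 with both drugs, all 3 singled out after their values were seen. In these genes both libraries with arsenic were the highest and the combination was above As2O3 alone. Of 29 targets 18 were lower and 11 higher, none of them 2-fold (median −0.21). BLVRB and ABCC3 had the largest differences, at −0.99 and 0.80. The metal-binding metallothioneins were lower in 6 of 8 genes, with MT1X at 37.7 FPKM without drugs, 13.7 with GSK458, 52.4 with As2O3 and 14.1 with both drugs and MT1E at 58.7 against 27.5 FPKM; close paralogs make these values uncertain. Heat shock genes had a median of −0.32, and HSPE1 and HSPA4L, the largest differences, stood at −0.88 and −0.80.

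The 15 highest genes were taken among those of at least 5 FPKM with As2O3 or with both drugs. They were ranked on the combination against As2O3, so a combination level above As2O3 follows from the ranking. In 14 of the 15 both libraries with GSK458 stood above both libraries without it, CDC37L1-AS1 being the exception. GPX3 stood at 2.12 FPKM without drugs, 155 with GSK458, 4.55 with As2O3 and 144 with both drugs, a log2 difference of 4.70. RIMKLB, an enzyme that joins glutamate to citrate or N-acetylaspartate, stood at 18.2 FPKM without drugs, 89.1 with GSK458, 36.5 with As2O3 and 224 with both drugs, and there the combination was higher than GSK458 alone. NEAT1, the long non-coding RNA that builds paraspeckles, stood at 28.6 FPKM without drugs, 87.3 with GSK458, 20.05 with As2O3 and 130.2 with both drugs. CYP27A1, a sterol hydroxylase, had 4.105 FPKM with As2O3 and 30.5 FPKM with both, HSD17B2, a steroid dehydrogenase, 0.242 FPKM with As2O3 and 10.4 FPKM with both, SPON2, a secreted matrix protein, 1.72 FPKM with As2O3 and 20.3 FPKM with both, SHISA2 1.14 FPKM with As2O3 and 13.97 FPKM with both and TMEM27 3.09 FPKM with As2O3 and 20.5 FPKM with both. FAM134B, a receptor for autophagy of the endoplasmic reticulum, stood at 0.899 against 6.16 FPKM, the developmental regulator HOXA6 at 11.9 against 47.7 FPKM, ZNF33B at 4.46 against 20.8 FPKM, GATS at 2.94 against 14.1 FPKM and LOC100505817 at 4.06 against 31.99 FPKM. H3F3A was under 0.1 FPKM in the control and As2O3 libraries and stood at 9.47 FPKM with GSK458 and 12.5 FPKM with both, and near-identical copies of this histone gene make the value uncertain. CDC37L1-AS1, an antisense transcript, was listed at 0 with As2O3, at 5.61 FPKM without drugs, 3.25 with GSK458 and 6.71 with both.

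Abundant transcripts were among the genes at least 2-fold apart. The most abundant of the genes at least 2-fold higher were RPL21, CITED2 and RIMKLB, with the snoRNA host GAS5 (158 FPKM without drugs, 726 with GSK458, 248 with As2O3 and 553 with both drugs), IGFN1 (109.8 against 273 FPKM), the proteoglycan VCAN (56.7 against 161 FPKM), SNHG7 (62.4 against 163 FPKM) and 3 humanin-like genes, MTRNR2L2, MTRNR2L8 and MTRNR2L9, with 319 FPKM without drugs, 1039 with GSK458, 272 with As2O3 and 699 with both drugs for the last. These 3 resemble mitochondrial ribosomal RNA, so reads from it may be counted there. The most abundant of the genes at least 2-fold lower were the actin-binding thymosin TMSB4X (6319.8 FPKM without drugs, 3883 with GSK458, 6267 with As2O3 and 2867 with both drugs), the galectin LGALS1 (2101 against 958 FPKM), TPI1, DDIT4, TFPI2, the tubulins TUBA1B (594 against 138 FPKM) and TUBA1C (394 against 158 FPKM), the hormone STC1 (405 against 189 FPKM), IGFBP2 (404 against 179 FPKM) and the RNA-binding protein ZFP36L1 (375 against 166 FPKM).

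Markers of clear cell carcinoma went in several directions. GPX3 was among those at least 2-fold higher. The protease inhibitor TFPI2 stood at 32.04 FPKM without drugs, 109 with GSK458, 664 with As2O3 and 301 with both drugs, the antimicrobial peptide DEFB1 at 89.2 FPKM without drugs, 18.99 with GSK458, 35.2 with As2O3 and 8.02 with both drugs and the fibrinogen chain FGB at 87.1 FPKM without drugs, 15.1 with GSK458, 36.6 with As2O3 and 12.2 with both drugs. Of 19 markers that passed the filter 11 were lower and 8 higher. In the matrix and adhesion list 16 of 29 genes were lower and 13 higher (median −0.18), while 52.3% of all genes were lower. No member was 2-fold higher, the highest standing at 0.72, and 5 were at least 2-fold lower. Among these were the urokinase PLAU at 379 against 134 FPKM, its receptor PLAUR at 6.51 against 1.82 FPKM, SPARC at 241 against 103 FPKM and COL4A2 at 158 against 69.1 FPKM. Lysosome and autophagy genes had a median of −0.029, with GLA and MCOLN1 farthest apart at −0.88 and 0.87. HLA class I genes had a median of 0.082, where TAP2 and PSMB9 were farthest from 0 at −0.89 and −0.67, and interferon-stimulated genes of 0.048, with BST2 at −0.81 and PARP9 at 0.75. SAMD9, a low gene picked after its value was seen, was the interferon-stimulated gene at least 2-fold higher (0.501 against 2.62 FPKM). The medians of the lysosome and HLA lists changed sign under other settings. Replication-dependent histones were higher in 6 of 7 measured genes (median 0.59), among them HIST1H2AC (10.9 FPKM without drugs, 10.95 with GSK458, 2.82 with As2O3 and 6.09 with both drugs) and HIST1H2BD (3.11 against 5.48 FPKM). HIST1H2AE, a low gene picked after its value was seen, was at least 2-fold higher (0.412 against 1.85 FPKM). Most replication-dependent histone messages lack a poly(A) tail, and the copies of these genes are similar, so single values are uncertain.

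**Figure D5:**
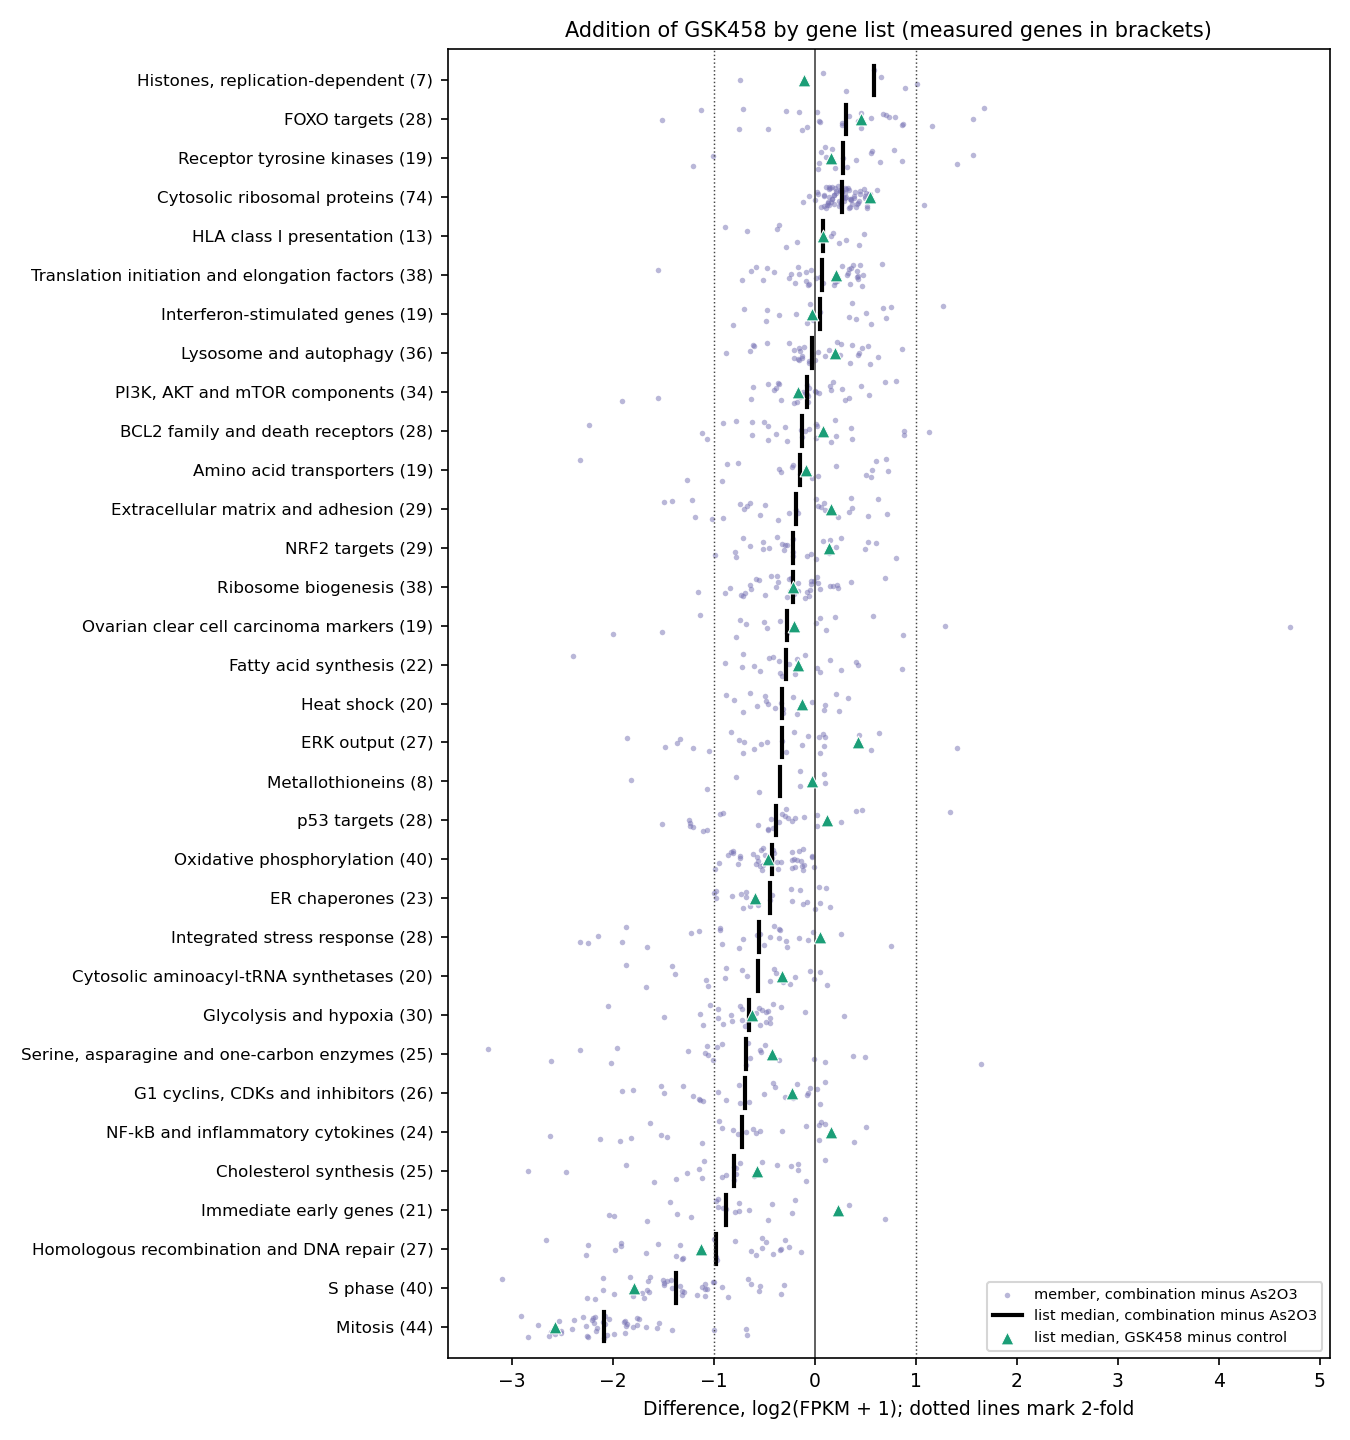
Differences on the log2(FPKM + 1) scale by gene list, with 1 dot for each measured gene in the combination minus As2O3, a bar for the list median and a triangle for the median in GSK458 minus control. Bar and triangle lie close together for glycolysis and oxidative phosphorylation and on opposite sides of 0 for immediate early, NF-kB, ERK and p53 genes.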

How the data were processed

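The authors deposited FPKM values for 26255 gene symbols in 4 columns, 1 library each, matched to samples by column name. Stranded mRNA libraries were made with a TruSeq kit, per the labels' protocols. Cuffdiff 2.2.1, TopHat2 2.1.1, SAMtools 0.1.18 and Bowtie2 2.2.8 are listed, with the build hg19, in the submitters' processing notes. The sources used here give no annotation, strand setting or treatment of multiply mapping reads, so values of paralogs, pseudogene parents, antisense and overlapping genes are uncertain. FPKM keep no counts, and their sums were 577409 with As2O3 and 566797 with both drugs.

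Values were used as deposited (Python 3.11.15, pandas 2.3.3). Differences are log2 with a pseudocount of 1 FPKM for genes that averaged 1 FPKM or more, without small nucleolar, Cajal body, micro, spliceosomal and similar RNA symbols. The calculation was tested on simulated data. Named genes are the 15 highest and 15 lowest among genes of at least 5 FPKM in either library, up to 6 a list each way (or the 2 farthest), the 10 most abundant each way at 2-fold, and PHGDH, ASNS and DDIT3; some plotted genes fall outside this rule. The comparison, genes, lists and motifs were chosen with earlier results of these data known. Motif matches are descriptions of letters. Some genes that the rule names are not reported here.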

Additional observations from a re-analysis of the deposited data

Results flagged for a closer look

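Differences that went opposite ways with and without arsenic were picked out here, and none of them could be tested with 1 library a group. By at least 2-fold each way this held for 4 genes. With GSK458 added to arsenic, the phosphatase DUSP5 differed by −1.05, GADD45A by −1.51 and TFPI2 by −1.14, and in GSK458 against control by 1.46, 1.17 and 1.74. NARR, which overlaps RAB34, was listed at 0 with As2O3 and with GSK458, so no fold is given; on the FPKM + 1 scale it differed by 1.96.

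List medians of opposite sign, each at least 0.1 from 0, were found for 7 lists. They were −0.88 for immediate early genes, −0.72 for NF-kB and cytokine genes, −0.39 for p53 targets, −0.33 for ERK output, −0.21 for NRF2 targets, −0.18 for matrix and adhesion and 0.59 for histones in the combination against As2O3. In GSK458 against control they were 0.23, 0.16, 0.12, 0.43, 0.14, 0.16 and −0.11 in the same order.

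The 60 small RNA symbols left out of the comparison summed to 1494 FPKM with both drugs, against 421 FPKM in the control, 629 with As2O3 and 755 with GSK458. Between As2O3 and both drugs, 24 of these symbols stood higher by 2-fold or more and 17 lower. Of the 12200 genes compared, 2.1% were higher and 4.16% lower by that much. The libraries were made from poly(A) RNA, so values of small RNA symbols are uncertain, and no difference between them was tested.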

How the results depend on the processing

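The alternatives tried were pseudocounts, filters, scalings, small RNA symbols kept, a lower fold and list means. The number of genes at least 2-fold higher, 256, was 559 and the number lower 676 with a pseudocount of 0.1 FPKM, and 54 and 260 with 5 FPKM. With a mean of at least 5 FPKM 139 were higher, and at 1.5-fold 1134 were higher and 1409 lower. After rescaling to a sum of 1000000, which raised all values against an unchanged pseudocount and filter, 445 were higher. All 151 named genes kept their direction where they were measured, but a pseudocount, filter or fold cannot reverse the sign of a single gene. Only a scaling could. No scaling moved the median of all genes by more than 0.11, and most named genes were picked for a large difference. Their kept direction is therefore no measure of robustness. Of the list medians, 31 of 34 kept their direction. The exceptions were PI3K, AKT and mTOR components at 0.031 and lysosome and autophagy at 0.091 with upper-quartile scaling, lysosome and autophagy at 0.016 for the mean over the list and HLA class I presentation at −0.065 for the mean. Without counts or replicates, a value was taken as moved where it shifted by over 1.5-fold, as 54 of 1191 values of named genes did. No paired analysis was possible because each group holds 1 library, and none could be left out. The unknown depth limits low genes most.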

Other observations

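Further patterns were seen in gene families taken by the form of their symbols, with antisense symbols (except the snoRNA host EPB41L4A-AS1) and pseudogene symbols left out, which were chosen with the values in view. All 10 measured alpha and beta tubulins, the subunits of microtubules, were lower in the combination than with As2O3 and 4 at least 2-fold (median −0.80). TUBA4A, a variant alpha tubulin, stood at 20.4 FPKM without drugs, 13.2 with GSK458, 55.7 with As2O3 and 21.6 with both drugs and TUBB4B at 305 FPKM without drugs, 89.8 with GSK458, 321 with As2O3 and 117 with both drugs. Close paralogs make single tubulin values uncertain. HOX cluster genes, which set positional identity, were higher in 23 of 26 measured genes and at least 2-fold in 4, namely HOXA6, HOXD4, HOXA10 and HOXB7 (median 0.59, and 0.25 for GSK458 against control). HOXA10 stood at 47.3 FPKM without drugs, 86.1 with GSK458, 31.6 with As2O3 and 72.02 with both drugs and HOXB7 at 15.4 FPKM without drugs, 22.04 with GSK458, 8.59 with As2O3 and 20.1 with both drugs, so the As2O3 library was the lowest for both.

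Host genes of small nucleolar RNAs were higher in 16 of 22 measured genes (median 0.41), and EPB41L4A-AS1, SNHG7 and GAS5 were at least 2-fold higher. EPB41L4A-AS1 stood at 11.7 FPKM without drugs, 58.9 with GSK458, 14.6 with As2O3 and 45.4 with both drugs. Proteasome genes (PSMA to PSMD) were lower in 33 of 37 genes (median −0.35) and mitochondrial ribosomal proteins in 61 of 77 (median −0.22). Zinc finger genes were higher in 251 of 387 (median 0.14). Of 33 kinesins 12 were at least 2-fold lower and 0 at least 2-fold higher, while 14 were above As2O3 by less. Of all genes compared, 4.16% were at least 2-fold lower and 2.1% at least 2-fold higher. Some of the lower kinesins, such as KIF2C and KIF11, are also in the mitotic list. In GSK458 against control 12 kinesins were at least 2-fold lower as well.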
